A study of Mus musculus with 2 samples.

Results

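Pth, which encodes parathyroid hormone, and tdTomato, the red fluorescent reporter carried by the stem cells that built these glands, were described across single cells of mouse parathyroid glands. They are 2 of the 32287 entries counted, and both were chosen by name. The glands came from Gcm2-/- hosts on a BDF1B6 background, complemented with mouse embryonic stem cells that carry Pth-tdTomato. Gcm2 is a transcription factor without which the parathyroid gland does not form, and in complementation donor cells placed in the embryo take over the organ that the host cannot make. Both libraries belong to the same group. Replicate 1 pooled the glands of 3 mice of 9 to 12 weeks whose blood was 50 to 70% chimeric, and replicate 2 pooled those of 5 mice of 6 to 13 weeks at 60 to 70%. Males and females were pooled in each. The labels do not say which stretch of Pth drives tdTomato, whether 1 allele or both carry it, or what a further entry, Gfp, marks. Each library is a pool, so that no value can be traced to a single mouse.

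Chief cells of the parathyroid gland secrete parathyroid hormone when blood calcium falls, and the calcium-sensing receptor, encoded by Casr, restrains it when calcium is high. The hormone releases calcium from bone, saves it in the kidney and promotes the making of active vitamin D. The Pth transcript is set both by transcription and by proteins that bind the mRNA and lengthen or shorten its life, and a reporter transcript shares only those controls that its construct includes.

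Pth (ENSMUSG00000059077) lies on chromosome 7 from 113385580 to 113388570 on the reverse strand of GRCm38, with 3 exons that hold 710 bases in all (GENCODE M21). Its promoter is shown because the reporter is named after this gene. RefSeq's window for GRCm38.p6, chr7:113388524-113388823 on the reverse strand, runs from 250 bases before RefSeq's start of the gene to 50 bases after it. Motif distances below refer to that start, which lies a few bases from the GENCODE start above. Of the 2 members, 1 had such a window. Capitals mark motif matches on either strand.
Pth promoter: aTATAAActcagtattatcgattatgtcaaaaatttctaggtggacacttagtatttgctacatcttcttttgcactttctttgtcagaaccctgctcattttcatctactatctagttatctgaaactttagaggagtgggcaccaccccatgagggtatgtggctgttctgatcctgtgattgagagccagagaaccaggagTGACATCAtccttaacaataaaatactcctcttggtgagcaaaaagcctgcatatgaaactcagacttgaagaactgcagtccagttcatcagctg
TATAAA matched once, 249 to 244 bases before the start, and 13.6% of 32851 promoter windows held it. TGACATCA, added after the sequence had been read, matched once at 46 to 39 bases before the start and was in 3.62% of windows. The palindromic cAMP response element TGACGTCA (1.79% of windows), CCAAT (37.4%) and GGGCGG (35.7%) had no match in this window. The matches did not overlap.

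Replicate 1 had 1406 barcodes, which stand for cells, and 41517620 UMIs in all, and replicate 2 had 3518 barcodes and 88283761 UMIs. A UMI is a molecular tag that counts each captured transcript once. Filters on genes, mitochondrial and haemoglobin UMIs left 1259 and 3319 barcodes. Parathyroid barcodes were those with Pth at 5% or more of their UMIs, 673 and 2243 of them, with medians of 37999 and 30602 UMIs. Barcodes with Pth under 1% numbered 571 and 1054, and only 15 and 22 lay between. Most markers went with the class. The 10 parathyroid markers summed to 88578 and 80806 CPM (a gene's UMIs scaled to a common library total) in parathyroid barcodes. In barcodes with Pth under 1% they summed to 1245 and 947 CPM. Chga, a chromogranin, gave most of the parathyroid sums, at 84297 and 76338 CPM. Pth1r alone of the list went the other way, at 0.964 and 0.669 CPM, against 14.92 and 18.01 CPM in barcodes with Pth under 1%. The 6 fibroblast markers summed to 119.6 and 140.3 CPM in parathyroid barcodes, against 12276 and 15203 CPM. In parathyroid barcodes the 8 myeloid markers summed to 35.8 and 63.4 CPM, the 6 endothelial markers to 3.50 and 15.8 CPM, and the 6 thyroid follicular markers to 0.675 and 3.87 CPM with 1 of them at 0 in each library. Gcm2, deleted in the hosts, was at 156.6 and 158.7 CPM in parathyroid barcodes, against 3.99 and 3.23 CPM in barcodes with Pth under 1%. Which exons of Gcm2 the hosts lack is not stated, so that this level alone does not tell donor from host cells. The libraries shared 3 barcodes, and each copy was kept in its own library.

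Pth filled a large and rather even part of every parathyroid barcode, and tdTomato followed at about 7 UMIs for every 100 of Pth. The median Pth share was 14.1% of UMIs in replicate 1 and 15.8% in replicate 2, with the 5th to 95th percentiles at 9.51 to 19.4% and 11.4 to 20.8%. The median tdTomato share was 1.00% and 1.07%, with the 5th to 95th percentiles at 0.626 to 1.38% and 0.706 to 1.56%. The lowest Pth shares, 6.02% and 5.40%, stand close to the 5% limit that chose the barcodes, and the highest were 28.9% and 28.7%. Summed over parathyroid barcodes, tdTomato came to 7.09 UMIs per 100 Pth UMIs in replicate 1 (exact binomial 95% interval 7.06 to 7.12, counting error only) and to 6.94 in replicate 2 (6.93 to 6.96). Between barcodes this ratio was wider, from 4.37 to 10.8 and from 4.50 to 9.86 at the 5th and 95th percentiles.

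**Figure D1:**
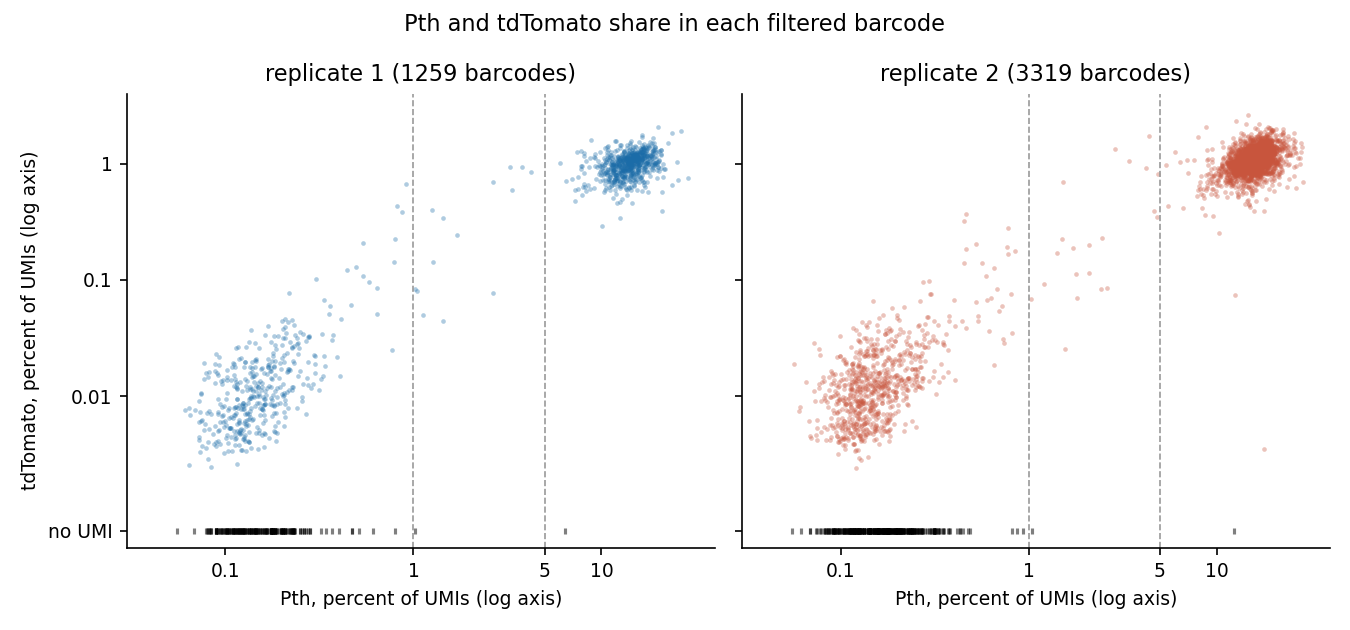
Share of UMIs taken by Pth (horizontal, log axis) and tdTomato (vertical, log axis) in each filtered barcode of replicates 1 and 2, with ticks along the bottom for barcodes with no tdTomato UMI and dashed lines at 1% and 5% Pth. A tight cloud near 15% Pth and 1% tdTomato stands apart from a second near 0.15% Pth, with 15 and 22 barcodes between the lines.

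The spread was then measured at equal depth, with each barcode thinned at random to 10000 UMIs. This left 652 and 2183 parathyroid barcodes, since 21 and 60 had fewer UMIs. Pth ranged from 578 to 2829 UMIs per 10000 around a median of 1414 in replicate 1, and from 535 to 2822 around 1580 in replicate 2. tdTomato ranged from 28 to 175 around 99 in replicate 1, and from 0 to 253 around 108 in replicate 2. The coefficient of variation (SD over mean) was 20.1% and 17.7% for Pth and 23.6% and 25.4% for tdTomato. With Poisson counting error taken off, it was 19.9% and 17.6% for Pth and 21.4% and 23.6% for tdTomato. At this fixed total the reporter was thus the more variable transcript in both libraries also after counting error. Depth was also set by 8000 UMIs of all other genes. The values after counting error were then 23.6% for Pth and 23.3% for tdTomato in replicate 1, and 21.2% and 25.7% in replicate 2. On that scale the order held in replicate 2 only. Whether the gap exceeds the spread between the 2 pools was not tested.

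Reporter detection was close to complete. A tdTomato UMI was found in 672 of 673 and 2242 of 2243 parathyroid barcodes, and a Pth UMI in all of them by construction of the class. The tdTomato share was under 50% of the library's median in 9 barcodes (1.34%) and 26 barcodes (1.16%), and under 10% of it in 1 and 3. The 1 in replicate 1 was shallow, with 972 UMIs, 62 of Pth and 0 of tdTomato, where the library's ratio gives 4.40. The 3 in replicate 2 were deep. The first had 22433 UMIs with 2770 of Pth, 0 of tdTomato, 34 of Gfp and 1461 of Chga, the chromogranin of the hormone granules, and the library's ratio gives 192 tdTomato UMIs. The second had 5086 Pth UMIs and 1 tdTomato UMI where the ratio gives 353, and the third 3926 and 23 where it gives 272. These 3 barcodes carried 12, 7 and 11 UMIs of Casr and other-cell-type markers at 0.0106% of UMIs or less. Their Gcm2 counts were 0, 1 and 6 UMIs, and 96.5% of the parathyroid barcodes of replicate 2 had a Gcm2 UMI. What sets these barcodes apart was not tested.

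The barcodes nearest to the 5% limit had a higher ratio of tdTomato to Pth. Part of such a difference between ranges of Pth follows from cutting on the denominator, and its size was not tested. Their median tdTomato shares, given next, were below those of the whole class, 1.00% and 1.07%. In replicate 1 no barcode lay from 5 to 6%, and the 15 barcodes from 6 to 8% Pth had a median tdTomato share of 0.731% and 10.2 tdTomato UMIs per 100 Pth UMIs, while the only barcode from 4 to 5% was at 0.845%. In replicate 2 the 3 barcodes from 5 to 6% had a median of 0.978% and 17.95 per 100 Pth UMIs, and the 5 from 4 to 5% one of 0.808%. At the other end, 4 and 22 barcodes had Pth at 25% or more, with tdTomato at 3.37 and 4.37 per 100 Pth UMIs. Those barcodes were shallow, with medians of 5999.5 and 3724 UMIs, and most fell outside the equal-depth values.

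Within parathyroid barcodes Pth and tdTomato moved together, but loosely. Across barcodes at 10000 UMIs the Spearman correlation was 0.334 in replicate 1 (n = 652) and 0.356 in replicate 2 (n = 2183), a mean of 0.345 ± 0.015 (SD, n = 2). Pearson's r was 0.302 and 0.342. The points share a library, a depth and a fixed total, so that more Pth leaves fewer UMIs for tdTomato. With depth set by 8000 UMIs of all other genes in place of the total, the Spearman correlation was 0.452 and 0.475. Without thinning it was 0.845 and 0.701, and these values include the differences in depth between barcodes.

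Counting error bounds what can be seen. When each gene's UMIs were split at random into 2 parts, the parts correlated at 0.958 and 0.954 for Pth and at 0.662 and 0.721 for tdTomato, the lower count. Pearson's r with the counting variance taken off was 0.337 and 0.372, little above the uncorrected r. The correlation was higher among barcodes with more UMIs, although all were thinned to the same number. From the lowest to the highest tertile of depth it was 0.208, 0.392 and 0.437 in replicate 1 and 0.269, 0.344 and 0.451 in replicate 2. The median Pth share hardly differed between those tertiles, at 14.1, 14.4 and 13.9% and at 15.9, 16.2 and 15.4%. Its spread was narrower in deeper barcodes. The upper and lower quartiles of that share lay 4.78, 3.77 and 3.06 points apart in replicate 1 and 3.99, 3.73 and 3.62 in replicate 2. The part of this spread in the correlation was not tested.

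**Figure D2:**
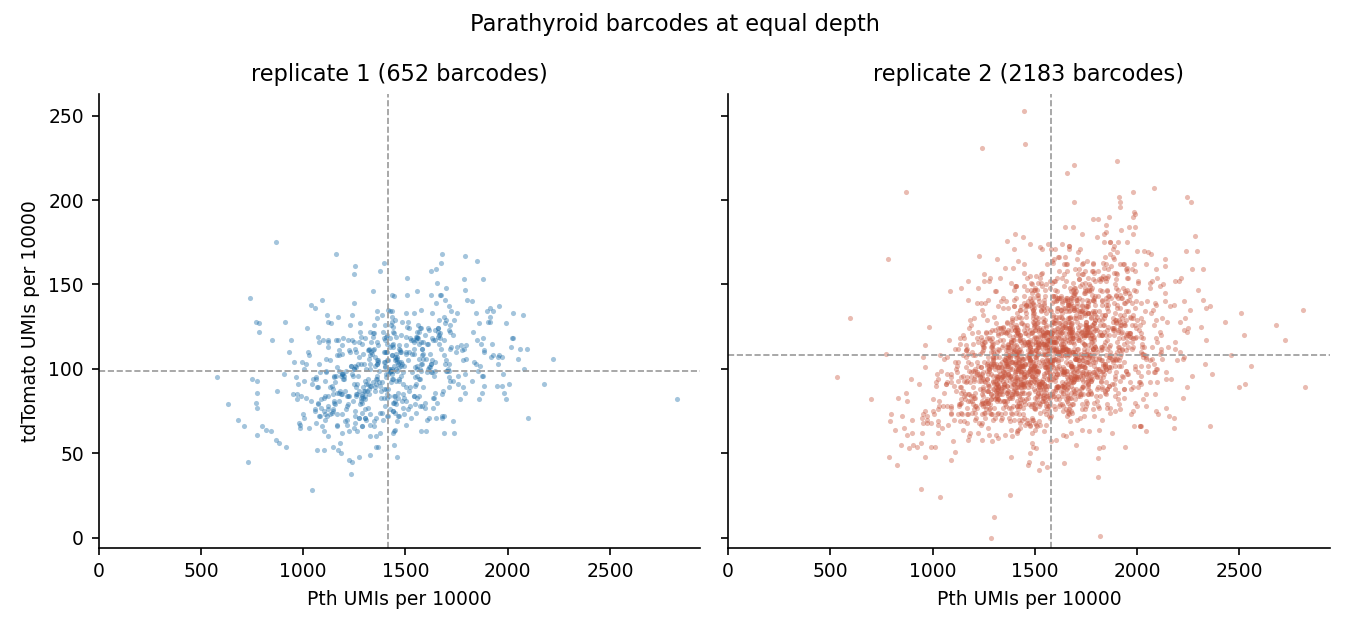
Pth UMIs (horizontal) and tdTomato UMIs (vertical) of each parathyroid barcode thinned to 10000 UMIs, with dashed lines at the medians of 1414 and 99 in replicate 1 and 1580 and 108 in replicate 2. The clouds tilt upwards, and a few barcodes of replicate 2 lie near 0 tdTomato at ordinary Pth.

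Divided into deciles by Pth, parathyroid barcodes showed tdTomato climbing less steeply than Pth. From the lowest to the highest Pth decile the median Pth was 972 and then 1902 UMIs per 10000 in replicate 1, and the median tdTomato 87 and then 109. In replicate 2 the median Pth was 1146.5 and then 2038, and the median tdTomato 88.5 and then 121. tdTomato per 100 Pth UMIs was accordingly 9.67 in the lowest and 5.82 in the highest decile of replicate 1, and 8.21 and 5.90 in replicate 2. Part of this slope follows from ranking on the denominator, and its size was not tested. In deciles by tdTomato, the median Pth was 1223 in the lowest and 1624 in the highest decile of replicate 1, and 1394.5 and 1760 in replicate 2.

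**Figure D3:**
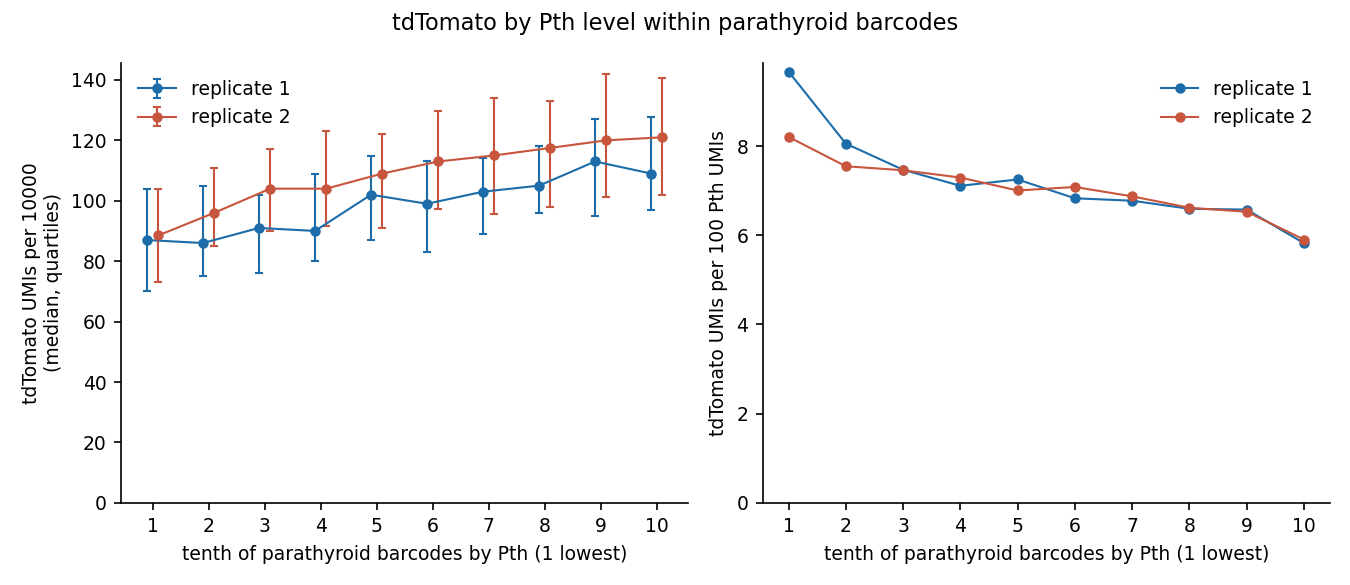
Left, median tdTomato UMIs per 10000 with quartiles by decile of Pth in parathyroid barcodes of both replicates, and right, tdTomato UMIs per 100 Pth UMIs in the same deciles. The medians climb to 109 and 121 in the highest decile while the ratio drops to 5.82 and 5.90.

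The tie between the members was also tested over libraries. Parathyroid barcodes were ranked by one member within each library, the counts of the highest and of the lowest tertile were summed, and the other member was tested with edgeR's quasi-likelihood test with the library as a block. By tdTomato, the highest tertile had a mean of 1498 Pth UMIs per 10000 in replicate 1 and 1698 in replicate 2, against 1303 and 1473 in the lowest. Pth was higher in both libraries, and the 4 means do not overlap between tertiles, although the highest tertile of replicate 1 is close to the lowest of replicate 2. After TMM scaling, which sets aside the genes that dominate a library, its log2 fold change was 0.31 (SE 0.045, adjusted p = 3.21e-04, edgeR). In this comparison 535 of 12006 genes were called higher (4.46%) and 487 lower (4.06%).

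By Pth, the highest tertile had a mean of 108.7 tdTomato UMIs per 10000 in replicate 1 and 120.2 in replicate 2, against 90.6 and 98.9 in the lowest. tdTomato was higher in both libraries with no overlap, with a log2 fold change of 0.46 (SE 0.027, adjusted p = 2.34e-64, edgeR). Here 1102 of 12016 genes were called higher (9.17%) and 982 lower (8.17%). With 4 sums there is 1 residual degree of freedom, and the p-values rest on the spread shared over all genes. Their exponents carry little meaning. For Pth, edgeR's adjusted p was 5.32e-05 with DESeq2 size factors (log2 fold change 0.30) and 8.76e-81 at 20000 UMIs (0.32). Under all alternatives that kept the call it ran from 1.70e-167 (at 0.40) to 0.00103 (at 0.20) for Pth, and for tdTomato up to 1.72e-06. Both calls were lost without the library block, at adjusted p = 0.847 for Pth and 0.236 for tdTomato, where the difference between the libraries counts as error. Scaled to library totals alone, the log2 fold changes were 0.20 for Pth (adjusted p = 0.00103) and 0.27 for tdTomato (adjusted p = 3.59e-10), and the median gene moved to -0.11 and -0.20. On that scale the calls were 115 higher and 1150 lower by tdTomato, and 204 higher and 2733 lower by Pth, so that the count in each direction depends on the scaling.

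UMIs of other cell types moved with both rankings. Markers of other types summed to 58.7 and 83.0 CPM in the highest tdTomato tertile, against 385 and 544 CPM in the lowest, and to 74.1 and 70.2 CPM in the highest Pth tertile, against 464 and 562 CPM in the lowest. Without barcodes holding 0.5% or more of such UMIs, an alternative chosen after seeing the data, Pth was still higher (0.28, adjusted p = 5.57e-07) and so was tdTomato (0.44, adjusted p = 4.16e-28). The correlation across the remaining barcodes was 0.320 and 0.337. Malat1, a nuclear RNA, was lower in the highest tertiles, at 571.1 and 506.0 UMIs per 10000 by tdTomato, against 666.8 and 567.8 in the lowest. The part of Malat1 in the result was not tested.

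Other genes that moved with the members between tertiles are the 6 largest changes each way at 50 CPM or more, after TMM scaling. Mt3, a metallothionein, was higher with both, at log2 fold changes of 0.78 by tdTomato (SE 0.042) and 0.55 by Pth (SE 0.041), and so were P2rx6, a subunit of ATP-gated channels, at 0.61 and 0.52, and Tmigd3 at 0.61 and 0.69. In the highest tdTomato tertile, Mt3 stood at 1045 and 1175 CPM, against 638 and 662 CPM in the lowest. Aqp5, a water channel, Cbr2, a carbonyl reductase, and Ndufs3, a complex I subunit, were among the largest by tdTomato (0.90, 0.57 and 0.45). Replicate 2 carried part of these, since in replicate 1 alone the log2 ratio was 0.28 for Aqp5, 0.36 for Cbr2 and 0.38 for P2rx6, against 1.10, 0.66 and 0.70 in replicate 2. Lamtor4, a subunit of the Ragulator complex, Spink8, a protease inhibitor, and Clu, a secreted chaperone, were among the largest by Pth (0.52, 0.50 and 0.49). The comparisons rank the same barcodes and are not independent.

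Lower with the members were genes that fibroblasts and antigen-presenting cells express, and others. Dcn (decorin), Gsn (gelsolin) and Cd74, the class II invariant chain, had log2 fold changes of -2.72, -2.71 and -1.91 by tdTomato and -2.74, -2.63 and -3.57 by Pth. Without barcodes rich in other markers Dcn had 0.30 and 0.95 and Gsn -0.30 and 0.27, and Cd74 had -0.61 and -1.50. Single libraries also differed, with log2 ratios in replicates 1 and 2 of -4.60 and -2.36 for Gsn and -1.19 and -2.14 for Cd74 by tdTomato, and of -4.48 and -2.35 for Dcn by Pth. Upk3a, a uroplakin, Xkr4 and Galntl6 were lower by tdTomato at -2.06, -1.04 and -0.97, and without those barcodes stood at -2.16, -1.16 and -1.002. By Pth the remaining genes named were Mt1, another metallothionein, Atg4a, an autophagy protease, and Tgfbr1, a TGF-beta receptor, at -0.78, -0.70 and -0.69. Atg4a had -1.05 in replicate 1 and -0.53 in replicate 2.

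Pathway lists around the hormone were counted in the same fits, where genes rose or fell if they passed edgeR's test. For comparison, 4.46% of all genes rose and 4.06% fell with tdTomato, and 9.17% rose and 8.17% fell with Pth. Of 27 tested genes of ER entry and folding, which a secreted hormone needs, 11 rose and 0 fell with tdTomato, and 13 rose and 0 fell with Pth, with medians of 0.22 and 0.24 on the log2 scale, against 0.00 and -0.00 for all genes. At an unadjusted p under 0.05 19 and 15 were higher and 0 lower, and DESeq2 called 7 of 16 and 5 of 19 higher and 0 lower. By library totals 3 rose and 0 fell with tdTomato, and 3 rose and 3 fell with Pth. Sec61g, of the translocation channel, had 0.27 and 0.37, and Ssr2, of the translocon-associated complex, 0.41 by tdTomato. Pdia6, a disulfide isomerase, had 0.36 by tdTomato, while Sec61b and Ssr4 had 0.39 and 0.31 by Pth. Not called were the chaperones Hsp90b1 by tdTomato (0.14, adjusted p = 0.0792) and Hspa5 by Pth (-0.01, adjusted p = 0.900).

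Of the 13 mitochondrially encoded genes 11 rose and 1 fell with tdTomato, and 8 rose and 1 fell with Pth, with medians of 0.21 and 0.11. The shares over all genes were 4.46% up and 4.06% down with tdTomato, and 9.17% up and 8.17% down with Pth. By library totals 5 rose and 1 fell with tdTomato, and with Pth 0 rose and 4 fell. mt-Cytb had log2 fold changes of 0.26 and 0.22, and mt-Co2 and mt-Atp6 had 0.25 and 0.24 by tdTomato. mt-Co3 and mt-Co1 had 0.18 and 0.17 by Pth, which turned to -0.01 and -0.02 by library totals. In single libraries mt-Co1 had 0.09 and 0.25. mt-Atp8 was not called by tdTomato (0.18), nor mt-Nd5 by Pth (-0.00).

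Of 24 immediate early and dissociation stress genes 10 fell and 1 rose with tdTomato, and 5 fell and 3 rose with Pth, with medians of -0.17 and 0.03. Among all genes 4.06% fell with tdTomato and 8.17% with Pth. The rising counts, 1 and 3, lie near the shares of all genes that rose, 4.46% and 9.17%. By library totals 16 and 12 fell. Egr1 had -0.59 and -0.49, Atf3 -0.37 and -0.35 and Nr4a1 -0.38 by tdTomato, all 3 inducible transcription factors. By Pth, Egr1 had -0.25 in replicate 1 and -0.61 in replicate 2. Jund rose by Pth (0.17) but had -0.02 by library totals. Fos was not called in either, at -0.11 and 0.03.

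Calls among regulators of Pth itself had no common direction after TMM scaling. Of 17 tested genes of Pth transcription and calcium signalling, 3 rose and 1 fell with tdTomato, and 3 rose and 4 fell with Pth, with medians of -0.00 and -0.08. Of all genes tested 4.46% rose and 4.06% fell with tdTomato, and 9.17% rose and 8.17% fell with Pth. Whether the small counts of this list differ from these shares was not tested. By library totals the counts for the list were 1 and 4 with tdTomato, and 0 and 8 with Pth. The transcription factors Gata3 and Gcm2, which act in parathyroid cells, had 0.24 and 0.27 by tdTomato, and Gcm2 had 0.18 in replicate 1 and 0.31 in replicate 2. Plcb1, a phospholipase, and Gnaq, a G protein subunit, both of the pathway below the calcium-sensing receptor, fell by Pth (-0.23 and -0.31), while Plcb1 by tdTomato and Kl, the co-receptor for FGF23, by Pth were not called (0.01 and -0.05).

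Of the 8 genes of Pth mRNA stability edgeR called 2 higher and 0 lower with each member, with 0 and 1 lower at an unadjusted p under 0.05, and DESeq2 called 0 of 4 and 0 of 5. Over all genes edgeR called 4.46% higher and 4.06% lower with tdTomato, and 9.17% and 8.17% with Pth. These shares apply to each list of this paragraph. Dynll1, a dynein light chain that binds the Pth transcript, was at 0.25 by tdTomato and 0.21 by Pth. The list's medians were -0.03 in both. By library totals 1 fell with tdTomato and 5 fell with Pth. Of 11 granule and hormone processing genes Sytl4, a granule-docking protein, fell with tdTomato (-0.22, with -0.14 in replicate 1 and -0.24 in replicate 2) and was not called with Pth (-0.06), and the list's medians were -0.09 and 0.03. Chga rose with Pth (0.24, adjusted p = 3.38e-34, edgeR) but had 0.05 by library totals (adjusted p = 0.265), and edgeR did not call it with tdTomato (0.14). The DESeq2 test did call Chga with tdTomato (0.14, adjusted p = 0.0121), and so did edgeR without the filter on low counts (0.14, adjusted p = 6.80e-05). Of 5 tested cell cycle genes edgeR called 0 with tdTomato, also at an unadjusted p under 0.05. DESeq2 gave none of them an adjusted p in either comparison. Mki67 fell with Pth in edgeR's test, at 0.98 and 1.92 CPM in the highest tertile, against 6.52 and 6.43 CPM in the lowest. These levels lie far below the 50 CPM asked of the largest changes. Pcna was not called, at 0.20 and 0.18. Without the library block edgeR called 0 genes of these lists in either comparison. At an unadjusted p under 0.05 that fit had 2 and 7 ER genes higher and 5 and 2 immediate early genes lower.

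Across single parathyroid barcodes each member ranked as the gene most like the other. Among 2630 genes with a mean of at least 0.5 UMI per 10000 in both libraries, tdTomato ranked 1st for Pth and Pth 1st for tdTomato, ordered by the lower of the 2 libraries' Spearman correlations. The median gene had -0.03 and -0.04 with Pth and -0.01 and -0.02 with tdTomato. After tdTomato, the genes most like Pth were Atp5e (0.239 and 0.191), a subunit of ATP synthase, and Spink8 (0.263 and 0.186). They were followed by Rpl41, Ubb, Cox8a, Ndufa4, Rps27a, Ubl5 and Nme2, with lower values between 0.137 and 0.174. After Pth, the genes most like tdTomato were Atp5e (0.229 and 0.218) and Mt3 (0.179 and 0.202), followed by mt-Cytb, Rpl36al, Ndufa4, Rplp0, mt-Co2, Gnas and Ndufa13, with lower values between 0.128 and 0.158. Most opposed to Pth were Zbtb20 (-0.328 and -0.296), Malat1, Myh10, Esrrg and Kansl1l, and to tdTomato Grip1 (-0.301 and -0.219), Malat1, Zbtb20, Rora and Lncpint. These points share the fixed total, and Pth takes the largest part of it. Counting error also lowers the values of genes with few UMIs. The mean per 10000 was 99.4 and 110.2 UMIs for tdTomato, against 17.5 and 17.2 for Atp5e and 3.73 and 4.08 for Nme2. The part of abundance in the ranks was not tested. The lesser values depended on depth: at 5000 UMIs Nme2 had 0.053 and 0.071 with Pth, and Rplp0 0.016 and 0.087 with tdTomato. Pth and tdTomato had 0.253 and 0.318 there.

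**Figure D4:**
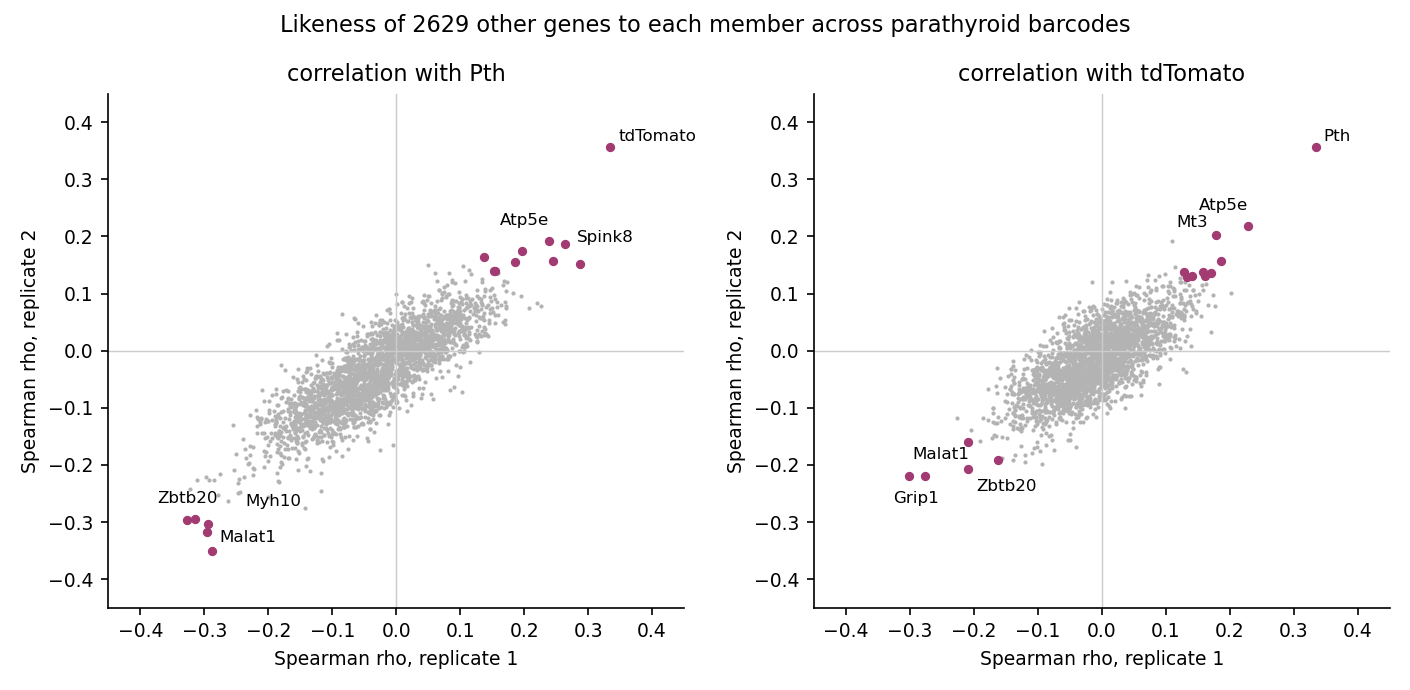
Spearman correlation of each other gene with Pth (left) and with tdTomato (right) across parathyroid barcodes at 10000 UMIs, replicate 1 on the horizontal and replicate 2 on the vertical axis, with the genes named by rule in purple. Each member stands alone at the upper right of the other's panel, at 0.334 and 0.356.

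Gfp, the other foreign entry, was hardly tied to the members. Its Spearman correlation across parathyroid barcodes at 10000 UMIs was 0.107 and 0.048 with tdTomato and 0.009 and -0.027 with Pth. Gfp was at 0 UMIs in 1 barcode of replicate 1 and in 49 barcodes (2.24%) of replicate 2. In those 49 the median tdTomato was 111, against 108 in the 2134 with a Gfp UMI, and the median Pth 1558, against 1581.

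Outside the parathyroid class Pth was present at a low level in every barcode and tdTomato in most. Among barcodes with Pth under 1%, all 571 and 1054 had a Pth UMI, and the median Pth share was 0.145% and 0.150%. tdTomato summed to 10046.5 and 10981 CPM in parathyroid barcodes, against 100.1 CPM (exact Poisson 95% interval 93.8 to 106.6) and 106.9 CPM (101.8 to 112.1) in barcodes with Pth under 1%, or 100.4 and 102.8 times less in the second class. Pth, which chose the classes, summed to 141696 and 158215 CPM in parathyroid barcodes, against 1431 and 1542 CPM, or 99.0 and 102.6 times less. The reporter was not used in the choice, and its log2 fold change after TMM scaling was 6.93 (SE 0.077, adjusted p = 7.05e-09, edgeR), higher in both libraries with no overlap. In this comparison 6111 of 17295 genes were called higher (35.3%), so that a call alone does not set tdTomato apart.

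The ratio of the members in all barcodes with Pth under 1% was close to that in parathyroid barcodes, but a few barcodes near the 1% limit carried the likeness. Barcodes with Pth under 1% had 6.99 tdTomato UMIs per 100 Pth UMIs in replicate 1 (95% interval 6.54 to 7.47) and 6.93 in replicate 2 (6.59 to 7.28), and the parathyroid values of 7.09 and 6.94 lie inside these intervals. Without the 14 and 25 barcodes from 0.5 to 1% Pth, whose ratios were 33.7 and 12.2, it was 6.15 (5.72 to 6.60) and 6.54 (6.20 to 6.90), below the parathyroid ratio in both libraries. At 10000 UMIs a tdTomato UMI was found in 100% and 99.95% of parathyroid barcodes, against 50.0% (exact binomial 95% interval 45.2 to 54.8) and 56.5% (52.7 to 60.3) of barcodes with Pth under 1%. Unthinned, the shares in the low class were 70.9% and 72.6%, at medians of 15409 and 14662.5 UMIs, where 137 and 382 barcodes were too shallow to thin. The level in this class is called background here, and whether it reflects expression or RNA from other cells was not tested.

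Background Pth differed by less than 2 times between marked cell types. The low barcodes were divided by the marker list that led in them. Pth stood between 1171 CPM in fibroblast-marked and 1887 CPM in lymphoid-marked barcodes of replicate 1, and between 1327 CPM in fibroblast-marked and 1945 CPM in endothelial-marked barcodes of replicate 2. The reporter ratio was 5.99 (5.36 to 6.67) and 6.94 (6.46 to 7.45) in the 230 and 451 fibroblast-marked barcodes, 5.65 (4.67 to 6.79) and 6.78 (6.01 to 7.63) in the 112 and 279 endothelial-marked, and 6.11 (5.33 to 6.99) and 6.31 (5.64 to 7.04) in the 149 and 197 myeloid-marked. In replicate 1 the intervals of these 3 types end below the parathyroid ratio of 7.09, and in replicate 2 those of all 3 include 6.94. In the 47 and 73 lymphoid-marked barcodes it was 8.65 (6.91 to 10.7) and 7.01 (5.56 to 8.74). A single barcode gave part of the first value, which was 6.16 without it. Only 9 and 17 barcodes were pericyte-marked, with wide intervals around 4.38 and 4.56.

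**Figure D5:**
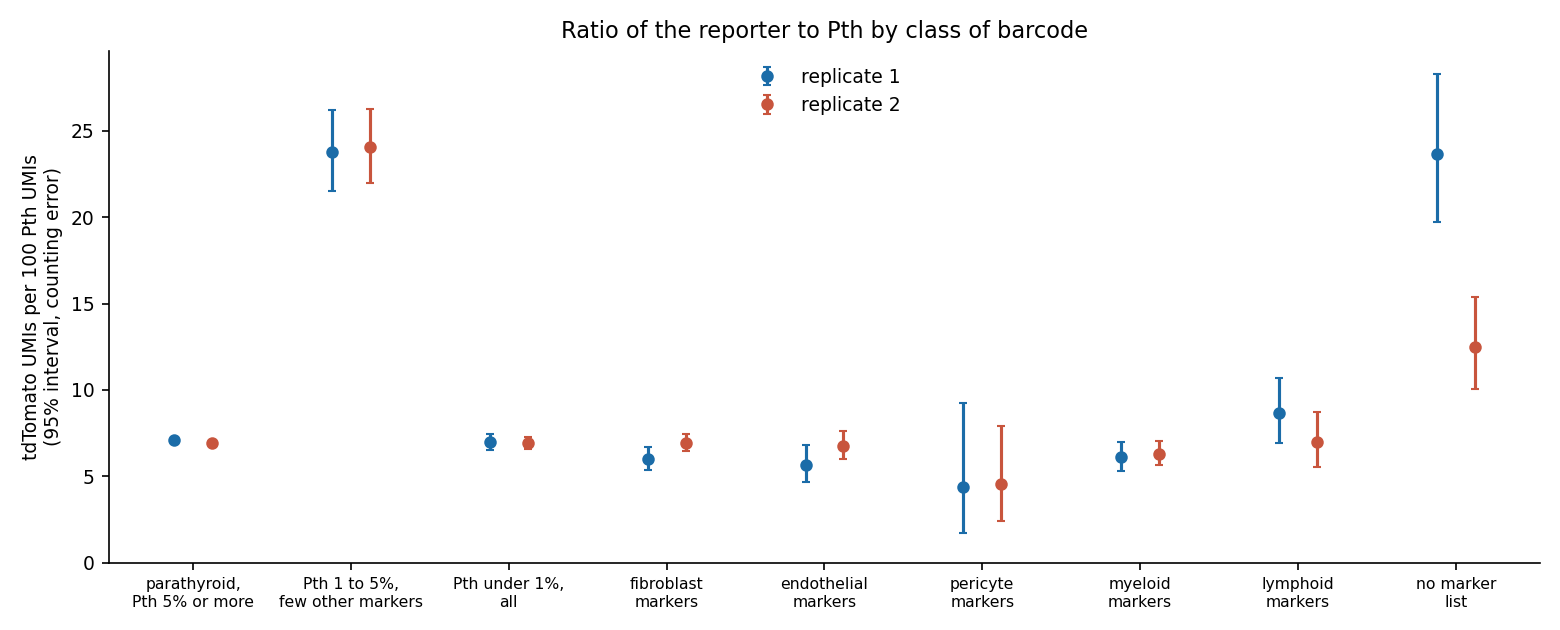
tdTomato UMIs per 100 Pth UMIs, summed over each class of barcode in replicates 1 and 2, with exact binomial 95% intervals that cover counting error only. Parathyroid barcodes and the marked classes of barcodes with Pth under 1% lie between 4.38 and 8.65, while barcodes with 1 to 5% Pth and few other markers lie at 23.7 and 24.03 and those with no marker list at 23.7 and 12.5.

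Background Pth grew with the size of the barcode, but less than in proportion. Across quartile groups of depth in the low class the median Pth count was 16, 20, 24 and 31 UMIs in replicate 1 and 14, 18, 24 and 29 in replicate 2. The median depth of those groups ran from 7514 to 26576 UMIs and from 6632 to 23162.5. The median Pth share therefore was lower in deeper barcodes, at 0.230% in the shallowest and 0.113% in the deepest group of replicate 1, and 0.227% and 0.120% in replicate 2. The Spearman correlation of Pth UMIs with depth was 0.666 and 0.723 (n = 571 and 1054 barcodes of the same library).

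A small number of barcodes departed from the common ratio, towards more reporter. Low barcodes with no leading marker list, 24 and 37 of them, had 23.7 (19.7 to 28.3) and 12.5 (10.0 to 15.4) tdTomato UMIs per 100 Pth UMIs. tdTomato reached 0.1% of UMIs in 10 low barcodes (1.75%) of replicate 1 and 12 (1.14%) of replicate 2, which held 18.5% and 9.97% of the tdTomato UMIs of the class at 38.9 and 25.7 per 100 Pth. Choosing them by tdTomato within a class of low Pth fixes a ratio over 10, so that these values only describe them. Of the 10 and 12, 7 and 8 had no leading marker list, and their median depth was 5196.5 and 3658 UMIs.

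Between the classes, from 1 to 5% Pth, 9 and 14 barcodes had under 0.5% markers of other cell types. Their reporter ratio was 23.7 (21.5 to 26.2) and 24.03 (22.0 to 26.2), over 3 times the parathyroid value in both libraries. Choosing them by low Pth, the denominator, favours a high ratio, so that these values only describe them. Their tdTomato was lower than in parathyroid barcodes, at 5853 and 7643 CPM, against 10046.5 and 10981 CPM. The other 6 and 8 barcodes of that range, with 0.5% or more of such markers, had 12.5 (11.1 to 14.1) and 5.70 (4.63 to 6.94), and the first was 3.34 without its top barcode. The 9 and 14 barcodes were shallow, with medians of 9047 and 5924.5 UMIs, against 37999 and 30602 in parathyroid barcodes. Mitochondrial UMIs were at medians of 9.19% and 11.8%, against 3.49% and 3.32%. The part of depth and of the mitochondrial share in the ratio was not tested. The filters matter here, since with no filter on barcodes the ratio of the low class was 9.71 (9.19 to 10.3) and 8.20 (7.84 to 8.58).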

How the data were processed

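Glands were minced, digested with papain, collagenase and trypsin, and sorted to discard doublets, per the labels' protocols, and libraries were made with a 10x 3' kit. The authors deposited raw counts of UMIs by gene and cell barcode, produced with Cell Ranger 7.0.0 on mm10, per the submitters' processing notes. No source used here gives the rule that separated cells from empty droplets. Barcodes with under 500 genes, 15% or more mitochondrial UMIs or 5% or more haemoglobin UMIs were left out. Thinning to 10000 UMIs was without replacement. A low barcode took the marker list with at least 5 UMIs and at least 2 times the next. Counts were summed per library and class and tested with edgeR 4.0.16 (TMM, filterByExpr, quasi-likelihood, Benjamini-Hochberg at 0.05), checked on simulated counts. The replicates are separate pools. The p-values set the difference between classes against how far that difference varied between these 2 pools, with a spread shared over all genes. The library was the block because its classes were pooled from shared mice. Intervals are 95% and cover counting error only. Named genes were, per member, the 10 most alike and 5 most opposed genes, the 6 largest changes each way between tertiles at 50 CPM or more (without ribosomal protein, Gm-number or Rik genes), all changed alike in both libraries, and from each list the 3 calls with the lowest p, plus the most abundant gene not called. The members, lists and tests were chosen with earlier results of these data known. Alternatives were DESeq2 1.42.0, other scalings, filters, depths, limits on Pth and the removal of Scrublet doublets (scanpy 1.11.5, 23 and 6 barcodes). Some genes that the rule names are not reported here.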

Additional observations from a re-analysis of the deposited data

How the results depend on the processing

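tdTomato in parathyroid barcodes against barcodes with Pth under 1% kept its direction and call under each alternative run with a test, at log2 fold changes between 6.52 and 7.12. Its values with 1 library left out were 6.97 without replicate 1 and 6.89 without replicate 2, as log2 ratios with no test. Between tertiles Pth lay between 0.20 and 0.40 and tdTomato between 0.27 and 0.55, with 0.33 and 0.29 for Pth and 0.48 and 0.44 for tdTomato in single libraries. Both were called under each alternative except the fit with no replicate block, at 0.31 (adjusted p = 0.847) and 0.46 (adjusted p = 0.236). The pairing comes from the shared pool of each library.

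Counts of called genes moved more. By tdTomato the calls were 255 higher and 63 lower with the DESeq2 test, which gave 1009 genes an adjusted p, 1 and 19 with no replicate block, 115 and 1150 by library totals, 1723 and 1920 in raw UMI sums, 1115 and 990 at 20000 UMIs, 282 and 248 at 5000, and 836 and 808 with 8000 UMIs of other genes. By Pth they were 234 and 51 with the DESeq2 test (1794 genes), 1 and 39 with no replicate block, 204 and 2733 by library totals, 2188 and 2455 in raw UMI sums, 1814 and 1478 at 20000 UMIs, 723 higher when split at the median, and 627 lower without Scrublet doublets. The cause was not tested.

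The mean Spearman correlation of 0.345 was 0.286 at 5000 UMIs, 0.370 at 20000, 0.463 with 8000 UMIs of other genes, 0.328 with under 0.5% markers of other types and 0.318 as Pearson's r of log2(UMIs + 1), and 0.356 and 0.334 in single libraries. The mean of the median reporter ratios, 6.97 at equal depth, was 7.05 at 5000 and at 20000 UMIs and 6.92 with Pth at 10% or more, and 6.95 and 6.995 in single libraries. In the background, 6.96 became 6.35 with Pth under 0.5%, 7.13 under 2%, 8.95 with no filter on barcodes, 7.36 at 5000 UMIs and 6.48 at 20000, and 6.93 and 6.99 in single libraries. Each parathyroid barcode with 10000 UMIs had passed the filters, so that no filter changed nothing at equal depth.

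Reversals among named genes were Dcn (0.30 by tdTomato, 0.95 by Pth) and Gsn (0.27 by Pth) with under 0.5% other markers. By tdTomato, Dynll1 had -0.0044 at 5000 UMIs, and Plcb1 -0.10 by library totals, -0.070 with another seed, -0.0056 with Pth at 10% or more, -0.00058 between outer quartiles, -0.027 in raw sums, -0.019 at 20000 UMIs, -0.056 at 5000, -0.12 with other genes as depth and -0.0043 with few other markers. By Pth, library totals turned Jund (-0.021), Fos (-0.17), mt-Co3 (-0.012), mt-Co1 (-0.022) and Pcna (-0.020). Also by Pth, Fos had -0.0028 when split at the median and -0.024 with Pth at 10% or more, Sytl4 0.032 with another seed and 0.0090 at 5000 UMIs, and Hspa5 0.035 with another seed, 0.029 in raw sums, 0.043 at 20000 and 0.042 with other genes as depth. mt-Nd5 had 0.0044 with another seed, 0.011 with Pth at 10% or more, 0.0078 between outer quartiles, 0.026 in raw sums, 0.011 at 20000 UMIs and 0.00077 with other genes as depth. Of the remaining values for named genes between tertiles, 911 kept direction and call, 72 lost and 38 gained a call. Of the likeness values under alternatives, 70 moved by more than the SD of the libraries, 42 did not, and none changed sign.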
